A study of Mus musculus with 8 samples.

Results

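Transcripts of 7 cell-surface peptidases were followed in sorted mouse pancreatic endocrine cells: Enpep, Cpm, Dpp4, Mme, Anpep, Ace and Ece1. They were picked by gene symbol from the 23284 genes of the count files, and all 7 had a row. Of these, 6 passed the filter on low counts and are among the 14116 genes tested. Ace did not pass. Enpep and Mme lie on chromosome 3. Dpp4 lies on chromosome 2, Ece1 on 4, Anpep on 7, Cpm on 10 and Ace on 11 (GENCODE vM21). Enpep and Cpm had been picked because they differed between the genotypes in these same libraries, so the KO and Het values of the 7 peptidases, and whether the test over all genes called them, are given as a description, with no p-value, and support nothing.

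The cells came from embryonic day 17 pancreata. KO cells (replicates 8, 9, 17 and 24) were Neurod1floxed/floxed, so that Cre can remove both alleles of Neurod1, a transcription factor gene of endocrine cells. Het cells (replicates 6, 7, 13 and 19) were Neurod1floxed/wt and keep an intact allele, and no library without a floxed allele was used here. Both genotypes were Neurog3Cre+ and RosaTomato+ on a background labelled C56BL/J, and Tomato-positive cells, which descend from cells that expressed Neurog3, were collected by flow cytometry. The labels do not say whether each library came from a separate animal or litter, so the spread between libraries may be in part technical.

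Ectopeptidases are enzymes anchored in the plasma membrane with their active site facing outward, where they trim or inactivate peptide hormones close to the receptors. Enpep (aminopeptidase A) takes acidic residues off the N-terminus and turns angiotensin II into angiotensin III, and Anpep (aminopeptidase N) takes off neutral residues. Cpm, held by a lipid anchor, removes C-terminal arginine or lysine from peptides such as bradykinin. Dpp4 clips N-terminal dipeptides and inactivates the incretins GLP-1 and GIP. Mme (neprilysin) cuts many short peptides, natriuretic peptides and tachykinins among them. Ace makes angiotensin II and breaks down bradykinin, and Ece1 releases active endothelin from its precursor.

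Libraries held between 10.35 M and 16.1 M counts. Neurod1 stood at 2.55, 12.9, 22.2 and 21.5 CPM (counts scaled to a common library size) in KO replicates 8, 9, 17 and 24, against 133, 138, 141 and 210 CPM in Het replicates 6, 7, 13 and 19. Its log2 fold change, KO over Het throughout, was −3.40 (SE 0.52) with an adjusted p of 0.0165 in edgeR's quasi-likelihood test, and 0.0523 to 0.0732 without KO replicate 9 or any single Het library. The summed level of 8 endocrine markers, Neurod1 among them, was 3639 to 7784 CPM in KO and 7833 to 9365 CPM in Het. The targeted gene counts in that sum. KO replicate 17 (7784 CPM) lay below Het replicate 13 (7833 CPM) by less than their difference in Neurod1. Without Neurod1 the genotypes would thus overlap, and nothing is read from the lack of overlap. RNA of other cells was present too. The summed level of 10 acinar markers ran from 13480 to 46919 CPM in KO and from 10680 to 33388 CPM in Het. KO replicate 8 stood apart for mesenchyme: its 10 markers summed to 10356 CPM there, against 390 to 558 CPM in the other KO libraries and 269 to 1298 CPM in Het. Its leading genes there were the collagen genes Col3a1 (3276 CPM) and Col1a2 (2552 CPM). It was also the highest library for 7 of 7 pericyte markers. Leukocyte markers summed to 391 and 226 CPM in KO replicates 8 and 9, against 17.7 and 40.4 CPM in KO replicates 17 and 24 and 16.5 to 61.4 CPM in Het, with Lyz2 (253 CPM) and Csf1r (81.0 CPM) the leading genes of KO replicate 8 and of KO replicate 9. In such pooled cells, fewer cells of a type and less RNA per cell cannot be told apart.

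Enpep and Cpm were higher in every KO library than in any Het library. Among all genes tested 48, or 0.340%, were called higher in KO by edgeR at an adjusted p under 0.05, and Enpep and Cpm are 2 of them. EdgeR called none of the 6 peptidases tested lower, against 0.680% of all genes. DESeq2 and limma-voom with quality weights each called 1 lower, Ece1, among 315 and 304 genes that they called lower in all. As these calls are what the pair was chosen for, nothing is read from their number. Enpep had 46.2, 37.7, 59.8 and 83.3 CPM in KO replicates 8, 9, 17 and 24, against 26.4, 16.0, 16.1 and 17.2 CPM in Het replicates 6, 7, 13 and 19. Every KO library lay above every Het library. KO replicate 24 was the highest of all, and Het replicate 6 stood apart from the other Het libraries. The means were 56.7 ± 19.9 CPM in KO and 18.9 ± 5.02 CPM in Het (SD, n = 4 each), a log2 fold change of 1.58 (SE 0.28).

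Cpm had 80.2, 100.3, 107 and 142 CPM in KO replicates 8, 9, 17 and 24, against 32.98, 42.9, 42.9 and 51.9 CPM in Het replicates 6, 7, 13 and 19. Again the genotypes did not overlap, and KO replicate 24 was the highest library. The means were 107 ± 25.6 CPM in KO and 42.7 ± 7.73 CPM in Het (SD, n = 4 each), a log2 fold change of 1.33 (SE 0.20). The authors' deposited table gives log2 fold changes of 1.58 for Enpep and 1.33 for Cpm. Within KO, Enpep and Cpm were both highest in replicate 24 and second highest in replicate 17. Within Het they parted: Het replicate 6 was the highest Het library for Enpep and the lowest for Cpm.

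The size of both differences was similar whichever library was left out, but the calls were not. Enpep's log2 fold change stayed between 1.32 and 1.79 with any 1 library left out, and Cpm's between 1.15 and 1.44. Enpep was no longer called without KO replicate 17 (1.54), KO replicate 24 (1.32), Het replicate 7 (1.51), Het replicate 13 (1.51) or Het replicate 19 (1.54). Cpm lost its call when KO replicate 9 (1.36), 17 (1.31) or 24 (1.15) was left out, and likewise for Het replicate 6 (1.22), 7 (1.33) or 13 (1.33). KO replicates 8 and 9, which held the most leukocyte RNA, had the lowest Enpep and Cpm levels of the KO libraries. Leaving out that pair therefore had to raise the log2 fold changes, which were then 1.91 (SE 0.26) for Enpep and 1.54 (SE 0.21) for Cpm, and the part of leukocyte RNA in these levels was not tested. Duct markers summed to 510 to 606 CPM in KO and 346 to 527 CPM in Het. EdgeR called 1 of the 6, Cftr, higher in KO (log2 fold change 2.23, adjusted p = 0.0427), against 0.340% of all genes. The other 5 were not called, and Spp1 went the other way (−0.17). The part of duct RNA in the Enpep and Cpm levels was not tested.

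**Figure D1:**
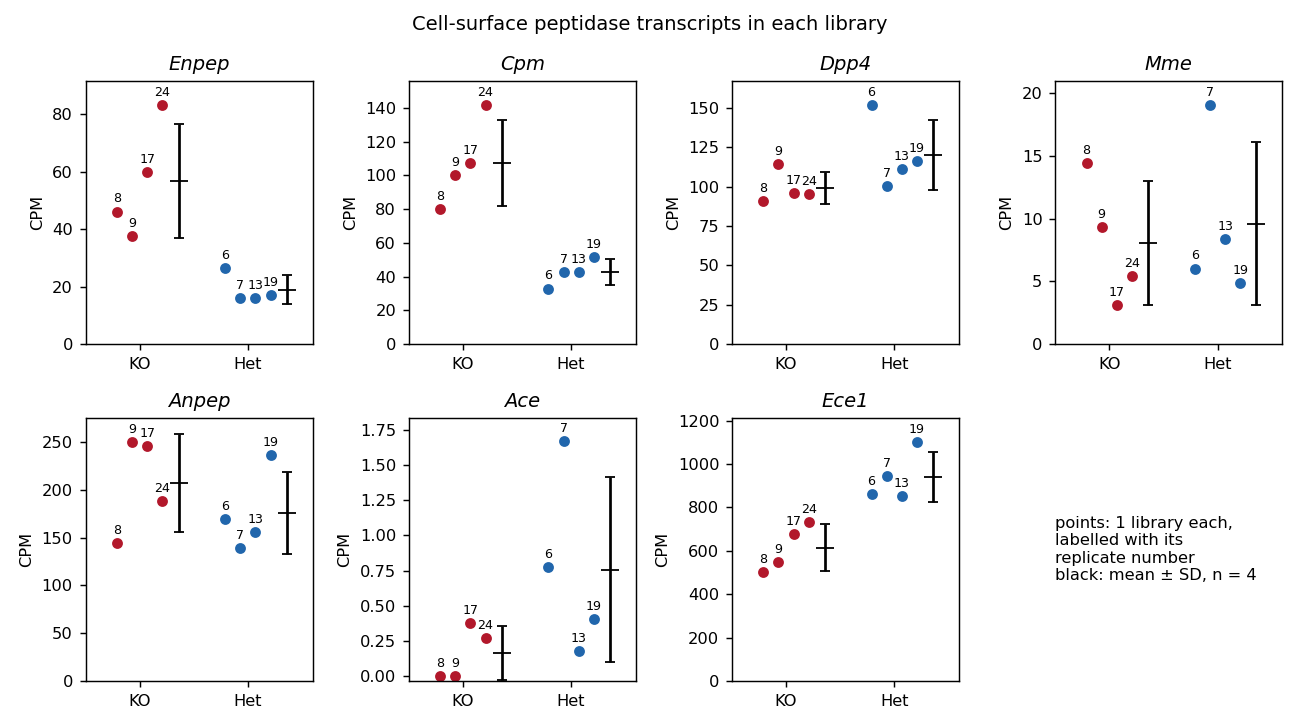
CPM of each of the 7 peptidase genes (linear axes, 1 panel a gene) in the KO (red, left) and Het (blue, right) libraries; each point is a library labelled with its replicate number, and black bars give mean ± SD (n = 4). Enpep and Cpm lie higher in all 4 KO libraries, Ece1 lies lower in all 4, and the genotypes overlap for Dpp4, Mme, Anpep and Ace.

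The stretches directly upstream of Enpep and Cpm are shown because these are the peptidase genes that edgeR called higher in KO, and because Neurod1 belongs to a family of factors that binds E-boxes. Each is the 250 bases before the start of the gene, 5′ to 3′ on the gene's strand, from RefSeq on build GRCm38.p6 (the counts were made on mm9). The Enpep stretch is chr3:129332750-129332999, minus strand, and the Cpm stretch is chr10:117629250-117629499, plus strand. Capitals mark matches to the E-box CANNTG, which reads the same on both strands.
Enpep: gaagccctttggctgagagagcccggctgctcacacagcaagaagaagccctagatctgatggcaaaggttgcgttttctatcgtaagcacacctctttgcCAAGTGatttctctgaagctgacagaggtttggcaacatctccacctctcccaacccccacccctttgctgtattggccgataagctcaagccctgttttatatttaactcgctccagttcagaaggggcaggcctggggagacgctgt
Cpm: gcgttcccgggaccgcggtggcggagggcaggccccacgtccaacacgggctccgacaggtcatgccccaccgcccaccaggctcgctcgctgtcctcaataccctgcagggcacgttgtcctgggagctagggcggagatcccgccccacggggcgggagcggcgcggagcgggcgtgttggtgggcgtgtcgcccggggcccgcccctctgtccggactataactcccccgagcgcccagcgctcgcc
Enpep's stretch holds 1 match, CAAGTG, from base −149 to base −144 counted from the start. Cpm's stretch holds 0. Of 32851 such stretches in the table, 66.2% hold at least 1 CANNTG. Neither stretch holds CAGATG on either strand, which 14.4% of all stretches hold. Neither holds CAGCTG, which 13% of them hold. The match and its absence are a description of these letters and do not bear on where Neurod1 binds. The composition of the pair differs: Cpm's stretch is 74.4% G or C with 30 CG dinucleotides, and Enpep's is 52.4% G or C with 6, which equals the median of all stretches (52.4% and 6).

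Among the remaining peptidases, Ece1 was the most abundant and was lower in KO. Ece1 had 502, 547, 676 and 732 CPM in KO replicates 8, 9, 17 and 24, against 859, 944, 854 and 1103 CPM in Het replicates 6, 7, 13 and 19. All KO libraries lay below all Het libraries. The means were 614 ± 108 CPM in KO and 940 ± 116 CPM in Het (SD, n = 4 each), a log2 fold change of −0.61 (SE 0.16). With Enpep and Cpm, 3 of the 6 peptidases that passed the filter had genotypes that did not overlap, which holds for 8.03% of all genes tested (3.55% higher and 4.48% lower in KO). As Enpep and Cpm were picked for their difference in these libraries, nothing is read from that count. EdgeR did not call Ece1, while DESeq2 and limma-voom with sample quality weights called it lower in KO (log2 fold changes −0.61 and −0.50). Those tools called 585 and 500 genes in all, against 144 by edgeR. The order of the libraries by Ece1 was near their order by the summed endocrine markers, a sum that includes Neurod1. Ece1 and the summed endocrine markers were both lowest in KO replicate 8, next lowest in KO replicate 9 and highest in Het replicate 19. The endocrine sums of KO replicates 17 and 24 (7784 and 7515 CPM) were near those of Het replicates 13 and 6 (7833 and 7994 CPM). Ece1 stood at 676 and 732 CPM in that KO pair, against 854 and 859 CPM in that Het pair. The part of endocrine cell content in the difference was not tested.

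The dipeptidyl peptidase gene Dpp4 differed little between genotypes. It had 90.9, 114, 96.1 and 95.4 CPM in KO replicates 8, 9, 17 and 24, against 152, 101, 111 and 116 CPM in Het replicates 6, 7, 13 and 19. The genotypes overlapped, since KO replicate 9 lay above Het replicates 7 and 13. Its log2 fold change was −0.28 (SE 0.16), and −0.14 without Het replicate 6, the highest library. Strand is not kept by this library kit, and 232 exon bases of Dpp4 are shared with an antisense gene, Gm13561, in GENCODE vM21, so reads of that pair cannot be told apart.

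Anpep, the aminopeptidase N gene, varied more within a genotype than between them. It had 144, 251, 246 and 188 CPM in KO replicates 8, 9, 17 and 24, against 170, 139, 156 and 237 CPM in Het replicates 6, 7, 13 and 19. KO replicates 9 and 17 and Het replicate 19 were high, and the genotypes overlapped. The means were 207 ± 50.9 CPM in KO and 176 ± 42.9 CPM in Het (SD, n = 4 each), a log2 fold change of 0.24 (SE 0.22). It moved to 0.13 without KO replicate 17, 0.14 without KO replicate 9 or Het replicate 7, 0.37 without KO replicate 8 and 0.41 without Het replicate 19.

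The neprilysin gene Mme was low and scattered. It had 14.4, 9.33, 3.09 and 5.39 CPM in KO replicates 8, 9, 17 and 24, against 6.02, 19.04, 8.39 and 4.87 CPM in Het replicates 6, 7, 13 and 19, or 41 to 308 counts in a library. The genotypes overlapped fully, with a log2 fold change of −0.25 (SE 0.56), −0.71 without KO replicate 8, −1.19 without KO replicates 8 and 9 and 0.32 without Het replicate 7. The most Mme was in Het replicate 7 and KO replicates 8 and 9. These 3 also held the most leukocyte RNA (61.4, 391 and 226 CPM), but in another order. Het replicate 13 had 8.39 CPM of Mme, near that of KO replicate 9, with a leukocyte sum of 17.3 CPM. KO replicate 8 and Het replicate 7 had the most mesenchyme RNA (10356 and 1298 CPM). None of the 8 leukocyte markers was at 0 in all libraries of a genotype. Whether such cells gave the Mme reads was not tested.

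Ace was barely detected, with 8 counts over all KO libraries and 43 over all Het libraries. It was at 0 in KO replicates 8 and 9, which allows up to 0.219 and 0.239 CPM there (3 counts, counting error alone), and at 0.377 and 0.270 CPM in KO replicates 17 and 24. Het replicates 6, 7, 13 and 19 held 0.772, 1.67, 0.177 and 0.406 CPM, and the genotypes overlapped. No fold change is given at this depth. The endothelial markers, of a cell type that is known to make Ace, were also low, at 5.81 to 28.1 CPM summed over 8 genes in KO and 9.89 to 17.4 CPM in Het. The libraries did not run in parallel: KO replicates 8 and 9, where Ace was at 0, had the highest endothelial sums (28.1 and 25.3 CPM). Ace shares 295 exon bases with an antisense gene, Gm11651.

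**Figure D2:**
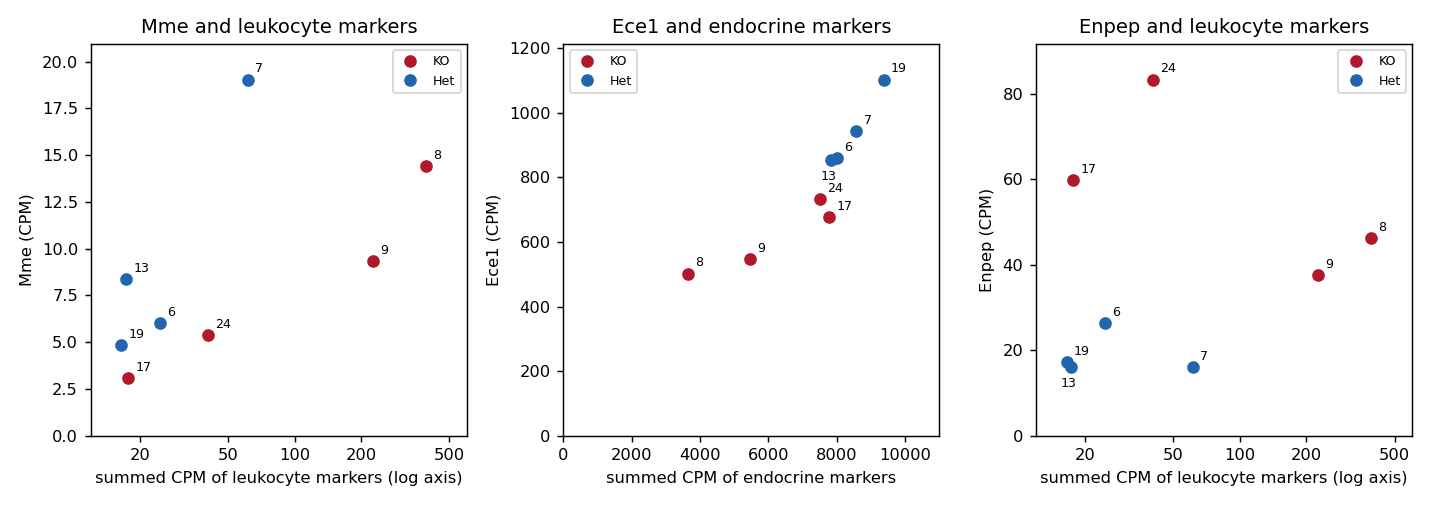
CPM of Mme (left) and Enpep (right) against the summed CPM of leukocyte markers (log axis), and of Ece1 (middle) against the summed CPM of endocrine markers, in the KO (red) and Het (blue) libraries, labelled with replicate numbers. The 3 libraries with the most leukocyte RNA have the most Mme, but Het replicate 7 has the most Mme and the smallest leukocyte sum of the 3. Ece1 is lowest where the endocrine sum is lowest (KO replicate 8). For Enpep the KO replicates with the largest leukocyte sums, 8 and 9, lie below KO replicates 17 and 24.

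Per exon length, Ece1 was the most abundant transcript and Ace the least. CPM per kb of merged exon (GENCODE vM21) put Ece1 first, at 94.7 to 138 in KO and 161 to 208 in Het. Anpep followed, at 34.8 to 60.6 in KO and 33.7 to 57.4 in Het, and Dpp4 came next, at 14.4 to 18.1 in KO and 15.9 to 24.04 in Het. Ece1, Anpep and Dpp4 did not overlap one another. The order of Dpp4 and Cpm depended on genotype: Cpm held 13.5 to 23.8 CPM per kb in KO, within reach of Dpp4, and 5.53 to 8.70 in Het, below every Het value of Dpp4. Enpep held 8.00 to 17.7 CPM per kb in KO and 3.40 to 5.61 in Het, and overlapped with Cpm in both genotypes. Mme held 0.268 to 1.25 CPM per kb in KO and 0.422 to 1.65 in Het. Ace came last, with at most 0.0713 CPM per kb in KO and 0.316 in Het, and overlapped with Mme in neither genotype.

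**Figure D3:**
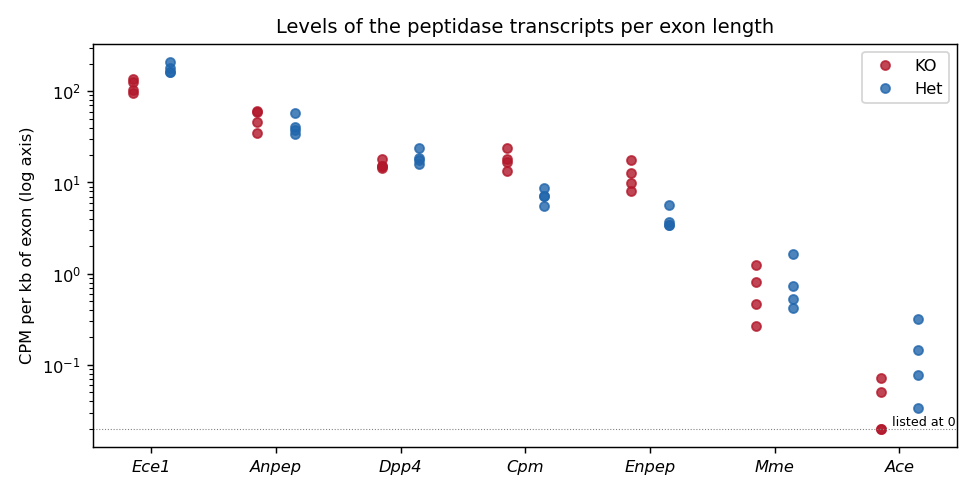
CPM per kb of merged exon (log axis) for the 7 peptidases, ordered by their mean over all libraries, with KO libraries in red left of Het libraries in blue; values at 0 are drawn on the dotted line. Ece1, Anpep and Dpp4 do not overlap, and the Cpm values reach those of Dpp4 in KO but not in Het.

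The genes whose profiles were nearest to Enpep and Cpm were taken from the 10409 tested genes that averaged 8 CPM or more and are reported here. Nearness was the root mean square difference, over the 8 libraries, of log2 CPM centred on each gene's own mean, a measure in which the genotype difference takes part. Nearest to Enpep were Nell1 (0.27), the adenylyl cyclase gene Adcy1 (0.33) and Skap1 (0.33), an adaptor of kinase signalling known from T cells. Nell1 had 44.95, 48.3, 69.0 and 95.9 CPM in KO replicates 8, 9, 17 and 24, against 32.3, 25.3, 23.8 and 14.9 CPM in Het replicates 6, 7, 13 and 19. Like Enpep, Nell1 was highest in KO replicate 24, second highest in KO replicate 17 and highest of the Het libraries in replicate 6. Nearest to Cpm were Wfikkn2 (0.14), the amino-acid transporter gene Slc7a8 (0.19) and Rtn4rl1 (0.20). Wfikkn2 had 54.2, 64.8, 86.9 and 91.6 CPM in KO replicates 8, 9, 17 and 24, against 23.9, 33.8, 33.8 and 43.8 CPM in Het replicates 6, 7, 13 and 19. Skap1 averaged 32.1 ± 8.56 CPM in KO and 8.77 ± 1.39 CPM in Het, Adcy1 133 ± 23.99 CPM in KO and 36.3 ± 9.60 CPM in Het, Slc7a8 464 ± 149.9 CPM in KO and 164 ± 18.5 CPM in Het, and Rtn4rl1 70.5 ± 17.3 CPM in KO and 31.2 ± 9.35 CPM in Het (SD, n = 4 each). The order of Wfikkn2 within Het, with replicate 6 lowest and replicate 19 highest, was that of Cpm and not that of Enpep. Differences within a genotype also took part in the choice of the nearest genes. Nothing is therefore read from the orders that Nell1 shares with Enpep or Wfikkn2 with Cpm.

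**Figure D4:**
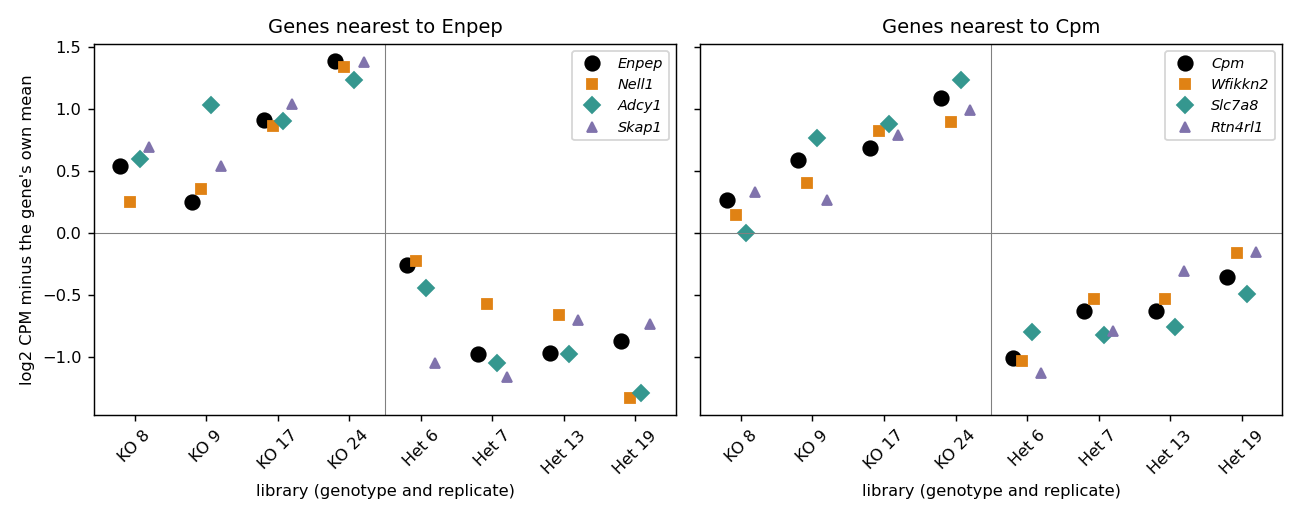
Log2 CPM minus the gene's own mean over the 8 libraries, for Enpep (left) and Cpm (right) in black and the 3 nearest genes reported here in colour, with KO libraries left of Het libraries in each panel. Het replicate 6 is the highest Het library for Enpep, Nell1 and Adcy1 and the lowest for Cpm, Wfikkn2 and Rtn4rl1. Skap1 is instead highest of the Het libraries in replicate 13, and Slc7a8 is lowest in replicate 7. The nearest genes were chosen over these same libraries, so nothing is read from the likeness.

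Other cell-surface peptidases were compared by a list of 37 genes reported here, of which 27 were tested. EdgeR called 0 of these 27, against 1.02% called among all genes, and 5 had an unadjusted p under 0.05, as had 1716 of the 14116 genes tested. DESeq2 called 1 higher and 1 lower in KO, and limma-voom with quality weights 2 higher and 1 lower. Among all genes these tools called 585 and 500, against 144 by edgeR. The list's median log2 fold change was 0.23, beside 0.03 for all genes tested, and 8 of its 27 tested genes were highest in KO replicate 8, as were 3198 of the 14116 genes tested. The smallest p was that of Bace2, a β-secretase relative, with means of 34.9 ± 17.2 CPM in KO and 91.8 ± 18.1 CPM in Het (SD, n = 4 each). EdgeR gave it a log2 fold change of −1.40 (SE 0.33) at an adjusted p of 0.0939. It was called lower without KO replicate 8 (−1.54, adjusted p = 0.0337) and by both other tools. EdgeR did not call it without any other single library (adjusted p from 0.0782 to 0.241). The membrane metalloprotease gene Mmp14 averaged 61.9 ± 25.2 CPM in KO and 28.2 ± 7.86 CPM in Het (1.13, adjusted p = 0.134, edgeR), and both other tools called it higher. Mmp14 was highest in KO replicate 8 (98.6 CPM). Its log2 fold change was 0.80 without that library (adjusted p = 0.129, edgeR) and 0.70 without KO replicates 8 and 9 (0.328).

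Relatives of the 7 peptidases that work inside cells or are secreted formed a second list, of 34 genes with 32 tested. By edgeR 1 of these fell and none rose, against 0.680% of all genes called lower and 0.340% called higher. Cpe, the prohormone-processing carboxypeptidase of secretory granules and a relative of Cpm, averaged 844 ± 138 CPM in KO and 2564 ± 649 CPM in Het (SD, n = 4 each). With a log2 fold change of −1.60 (SE 0.21) it had an adjusted p of 0.00795 by edgeR and was called under all 15 alternatives. The carboxypeptidase genes Cpm and Cpe lay on opposite sides, but Cpm was picked for its difference in these libraries, so nothing is read from that. Cpd, a membrane carboxypeptidase of the secretory pathway, had a log2 fold change of 0.20 (adjusted p = 0.603). The list's median was 0.12. Soluble aminopeptidase relatives of Enpep and Anpep did not pass the test, with log2 fold changes of 0.32 for Npepps, 0.30 for Rnpep and −0.26 for Erap1. The same held for relatives of Dpp4, with 0.15 for Dpp9, −0.01 for Dpp8 and 0.18 for Dpp7.

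Of the 16 angiotensin, kinin and endothelin genes listed 9 were tested. EdgeR called 1 lower in KO and none higher, against 1.02% of all genes called. DESeq2 called 3 lower, among 315 genes that it called lower in all. The median log2 fold change was 0.35. Edn3, the gene of endothelin-3, whose precursor Ece1 processes, had 23.3, 12.8, 26.4 and 24.7 CPM in KO replicates 8, 9, 17 and 24, against 46.1, 62.8, 49.8 and 76.3 CPM in Het replicates 6, 7, 13 and 19. By edgeR the log2 fold change was −1.43 (SE 0.26), at an adjusted p of 0.0362. The call was kept without KO replicate 8 (adjusted p = 0.0191) and lost without any other single library (0.0610 to 0.106), with log2 fold changes between −1.55 and −1.24. Agt, the gene of the angiotensin precursor, averaged 4.23 ± 1.76 CPM in KO and 14.0 ± 4.84 CPM in Het (log2 fold change −1.72, adjusted p = 0.0994). It was called lower without KO replicate 8 (−2.01, adjusted p = 0.0281) and by DESeq2. EdgeR did not call Agt without any other single library (adjusted p from 0.118 to 0.245). Mas1, a receptor gene of the angiotensin system, averaged 1.19 ± 0.86 CPM in KO and 5.57 ± 3.62 CPM in Het (−2.21, adjusted p = 0.214, called lower by DESeq2). The angiotensin II receptor gene Agtr2 stood at 599.8 CPM in KO replicate 8, the library with the mesenchyme RNA, against 8.45 to 24.2 CPM in the other KO libraries and 9.53 to 64.2 CPM in Het. Its log2 fold change was 2.32 with all libraries and −1.16 without KO replicate 8 (adjusted p = 0.489 and 0.367). Ren1, the renin gene, did not pass the filter on low counts.

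Among 15 tested islet and gut peptide genes and their receptors, of 19 listed, edgeR called 2 lower in KO and none higher, against 1.02% of all genes called. DESeq2 called 3 lower and 1 higher, and limma-voom with quality weights 2 lower and 1 higher. In all, these tools called 585 and 500 genes. The median log2 fold change was −0.24. Npy, whose product Dpp4 trims, averaged 19.1 ± 10.5 CPM in KO and 196 ± 23.2 CPM in Het (SD, n = 4 each), with a log2 fold change of −3.36 and an adjusted p of 0.00708 by edgeR. Gcg, the source of GLP-1 and glucagon, had a log2 fold change of −1.04 (adjusted p = 0.0440, edgeR). Its call ended when KO replicate 9 or 17 or any single Het library was left out (adjusted p from 0.103 to 0.143), when KO replicates 8 and 9 were (0.0913), with scaling by total counts (0.0559) and with no filter on low counts (0.0523). Gip, the gene of the other incretin, averaged 4.65 ± 2.61 CPM in KO and 12.1 ± 4.42 CPM in Het (−1.38, adjusted p = 0.230). EdgeR called it lower without KO replicate 8 and not without any other single library (adjusted p from 0.302 to 0.434). The GLP-1 receptor gene Glp1r averaged 221 ± 89.0 CPM in KO and 119 ± 23.1 CPM in Het (0.89, adjusted p = 0.198). Both DESeq2 and the quality-weighted limma-voom fit called it higher.

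The last list held 18 genes of tachykinin, natriuretic, opioid and adrenomedullin or CGRP peptides and their receptors. EdgeR called none of the 8 tested, against 1.02% of all genes called. Among them are Calcrl, Ramp1 and Ramp2, the receptor parts for adrenomedullin and CGRP. The unadjusted p was under 0.05 for 1 of the 8, against 1716 of 14116 genes tested. DESeq2 made 2 calls in this list and 585 among all genes, and limma-voom with quality weights made 0 and 500. All 8 had a positive log2 fold change (median 0.58), as had 7535 of the 14116 genes tested. Of the 8, 5 were highest in KO replicate 8, as were 3198 of the 14116 genes tested. The smallest p was that of Calcrl, a receptor for peptides that neprilysin can cut, with 24.1, 12.1, 6.33 and 7.73 CPM in KO replicates 8, 9, 17 and 24, against 2.09, 2.78, 3.53 and 4.46 CPM in Het replicates 6, 7, 13 and 19 (log2 fold change 1.97, SE 0.49, adjusted p = 0.109). Without KO replicate 8 its log2 fold change was 1.43 (adjusted p = 0.140, edgeR), and without KO replicates 8 and 9 it was 1.13 (0.422).

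**Figure D5:**
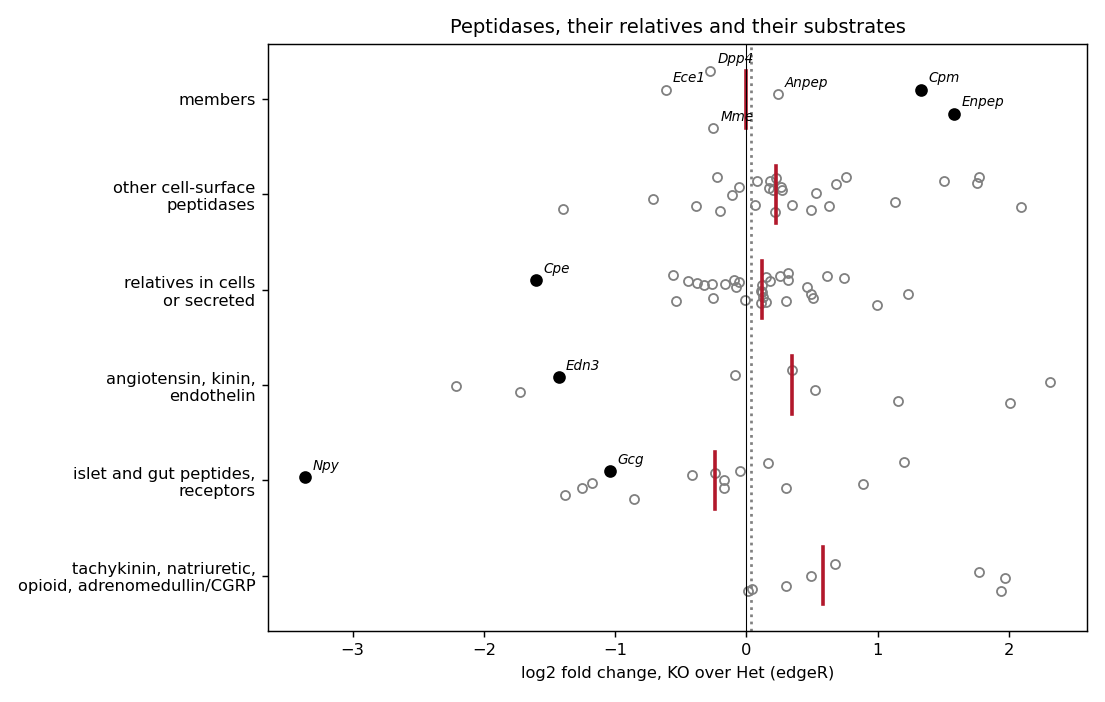
Log2 fold change, KO over Het, of the tested genes of each list (1 point a gene, rows are lists, vertical position within a row has no meaning). Filled points are genes called at an adjusted p under 0.05, red bars are list medians and the dotted line is the median of all genes tested; Enpep and Cpm are the called genes on the right, and Cpe, Edn3, Npy and Gcg those on the left.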

How the data were processed

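RNA of sorted cells was amplified with a NuGEN Ovation V2 kit and sequenced as single-end reads, per the labels' protocols. The deposited counts are whole reads per gene symbol, 1 file a library, not normalized. Per the submitters' processing notes, the reads were handled with TopHat2 2.1.0, bcl2fastq 1.8.4, DESeq and Cufflinks 2.0.2 on build mm9. Neither counting tool nor annotation is given in the sources used here. A comparison table deposited by the authors holds their mean normalized signal per group, fold change, log2 fold change and p-values, per the file headers. Its p-values were not used.

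Libraries were placed in KO or Het by their titles. No 2 libraries held identical values. EdgeR 4.0.16 (R 4.3.3) kept 14116 of 23284 genes (filterByExpr, minimum count 10, minimum total 15), scaled libraries by TMM and compared KO with Het by its two-sided quasi-likelihood F test, with Benjamini-Hochberg adjustment over all tested genes. Genes were called at an adjusted p under 0.05. SE is the log2 fold change divided by the square root of F. Totals of 10.35 M to 16.1 M make 1 count 0.0618 to 0.101 CPM, and PCR copies are counted as reads.

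The 7 peptidases and the lists were chosen with earlier results of these data known. The naming rule took the 7 peptidases, Neurod1, up to 4 called genes of each list or else the 1 with the smallest p, and the 3 nearest genes. It also took the 2 leading markers of a list that stood apart in a library. Any other gene was named with its value in view. An item withheld from the text was left out of the lists and of the nearest genes and is not reported here. Alternatives tried were other scalings, filters and tools (DESeq2 1.42.0, limma 3.58.1) and each library left out. DESeq2 was given all 18760 genes with a count and applied its own filter. Its calls are thus not over the same genes as those of edgeR. Leaving out KO replicates 8 and 9 together was chosen after seeing the data. Exon lengths and loci are from GENCODE vM21 on GRCm38 and bear on the mm9 counts as an approximation.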

Additional observations from a re-analysis of the deposited data

Results flagged for a closer look

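Within a genotype, 6 of 56 groups of 4 values had a library far from the other 3 by Dixon's test, which chance gives for about 1 group in 20. Agtr2, Fap and Ece2 had been named with their values in view, so the number is not to be read against chance. Enpep stood at 26.4 CPM in Het replicate 6, against 16.0 to 17.2 CPM in the other Het libraries. Neurod1 stood at 210 CPM in Het replicate 19, and Npy at 161 CPM in Het replicate 7. In KO replicate 8 the receptor gene Agtr2 stood at 599.8 CPM and the fibroblast peptidase gene Fap at 76.4 CPM, and that library also held the most mesenchyme RNA. Ece2, a relative of Ece1, stood at 16.7 CPM in KO replicate 24, against 12.7 to 13.1 CPM in the other KO libraries.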

How the results depend on the processing

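No paired analysis was possible because the genotypes share no replicate number. The number of genes called, 144, was 585 with DESeq2, 500 with quality-weighted limma-voom, 166 without KO replicates 8 and 9 and 29 (without Het replicate 13) to 285 (without KO replicate 8) with each library left out. Of the 7 peptidases 2 were called, or 0 to 2 with each library left out and 3 with DESeq2 and with quality-weighted limma-voom. Calls among other cell-surface peptidases (0) were 2 and 3 with these tools and 0 to 1 with each library left out. Calls among peptide substrates and their receptors (3) were 9 by DESeq2 and 1 to 5 with each library left out. The call in the list of relatives was 1 under all 15 alternatives. Without KO replicates 8 and 9 Mme moved to −1.19. Its lowest and highest values with a library left out were −0.71 and 0.32, those of Agtr2 −1.16 and 2.88, and those of Fap −0.58 and 2.55. Reversed directions, none of them called, were those of Mme without Het replicate 7 (0.32), of Agtr2 by limma-voom with quality weights (−0.46), without KO replicate 8 (−1.16) and without KO replicates 8 and 9 (−1.72), and of Fap under the same settings (−0.82, −0.58 and −1.22). The causes were not tested. Ace and Mme are limited by their low counts.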

Other observations

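Several peptidase genes outside the 7 were high in a single library, KO replicate 8. Naalad2, a glutamate carboxypeptidase gene, reached 42.3 CPM there. It held 0.0798 to 2.88 CPM in KO replicates 9, 17 and 24 and 0.406 to 6.12 CPM in Het. The membrane metalloprotease gene Mmp16 reached 67.2 CPM, and 8.18 to 10.1 CPM in KO replicates 9, 17 and 24 and 4.76 to 10.5 CPM in Het. The carboxypeptidase-like gene Aebp1 reached 54.7 CPM, and 3.32 to 8.54 CPM in KO replicates 9, 17 and 24 and 3.95 to 11.9 CPM in Het. These 3 were chosen after their values were seen. The brain dipeptidyl peptidase relatives Dpp6 and Dpp10, which regulate potassium channels, had means of 21.1 ± 10.7 and 33.9 ± 11.6 CPM in KO and 24.7 ± 4.02 and 28.03 ± 13.9 CPM in Het (SD, n = 4 each), and neither passed edgeR's test (adjusted p = 0.854 and 0.852).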
